A study of Mus musculus with 12 samples.

Results

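A set of 8 genes of MHC class II antigen presentation were followed in whole lungs of newborn mice: the peptide-binding chains H2-Aa, H2-Ab1 and H2-Eb1, the invariant chain Cd74, the peptide-loading genes H2-DMa, H2-DMb1 and H2-Oa, and the transactivator Ciita. The members were all probes whose array annotation carries 1 of these symbols, which gave 15 probes of 8 genes among 45263 intact probes. H2-Ab1 and Cd74 had 3 probes each, Ciita, H2-DMa and H2-Oa had 2 each, and H2-Aa, H2-Eb1 and H2-DMb1 had 1 each. The levels of every lung, the co-variation between lungs and the difference between genotypes are given for them.

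The lungs came from 6 Foxf1+/- pups and 6 wildtype littermates at postnatal day 0.5, of the 129/C57BL6/J mixed background, with 1 array of the type Illumina MouseWG-6 v2.0 per lung. In the Foxf1+/- pups, the first exon of 1 copy of Foxf1, a transcription factor of lung mesenchyme and endothelium, had been deleted through EIIa-Cre, which acts early and in most tissues including the germ line, so that the loss is not restricted to a cell type. Foxf1 itself fell by 1.00 ± 0.13 on the log2 scale in Foxf1+/- lungs (SE, adjusted p = 0.00224). The arrays were run in 2 experiments that the labels do not name, and the split used here was inferred from the overall signal. Experiment A held 4 Foxf1+/- and 2 wildtype lungs, and experiment B held 2 Foxf1+/- and 4 wildtype lungs. Levels are log2 signals after background correction and quantile normalization, each fold change is the log2 of Foxf1+/- over wildtype signal with the experiment fitted, and adjusted p-values come from limma over all 33947 probes kept. Raw medians were 57.3 to 89.3 per array. Precision is limited by the count of arrays, 6 per genotype.

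MHC class II molecules are pairs of an alpha and a beta chain that show peptides from endosomes to CD4+ T cells. The invariant chain fills the groove during transport, H2-DM then exchanges its remnant for other peptides, and H2-O restrains H2-DM. Dendritic cells, B cells and macrophages are the main carriers of these molecules, and alveolar type 2 cells of the lung carry them too. Their genes share a promoter module of an X box and a Y box, bound by the RFX, CREB and NF-Y factors, to which the coactivator Ciita docks.

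One library stood apart for these genes. Wildtype replicate 5, of experiment B, had the highest signal of all 12 lungs for 14 of the 15 member probes, against 8.93% of all probes. The same lung had a mean level of 8.53 over 15 genes of T cells and thymocytes, while the Foxf1+/- lungs lay between 6.501 and 6.646 and the other wildtype lungs did not exceed 6.67. In 14 of those 15 genes it was the highest lung. Cd3d, a chain of the T cell receptor complex, reached 10.84 there, against 6.08 to 6.99 in Foxf1+/- lungs and 6.27 to 6.98 in the other wildtype lungs. Markers of thymic epithelium were higher there as well, with a list mean of 7.60 in that lung, against 6.39 to 6.78 in Foxf1+/- lungs and at most 6.71 in the other wildtype lungs. Foxn1, the defining gene of that epithelium, did not pass the filter on low values. The members' differences, correlations and gene list calls are therefore also given without this lung. What part the T cell and thymic genes have in the class II levels was not tested.

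The promoters of 4 members are shown because they carry the module common to this family. RefSeq windows (GRCm38.p6, 250 bases before to 50 after the start) were at hand for 5 members, in 6 windows. The Y box, searched as GATTGG on both strands, lay in 5 of the 6 windows and in 16.1% of all 32851 promoter windows of the same length. The X box, searched as CCNNGNAAC, lay in 3 of the 6 and in 15.1% of all. A shorter form, CNNGNAAC, which overlaps it and was chosen after the windows had been read, lay in 6 of 6 and in 39.1% of all. H2-Aa, H2-Eb1, H2-DMb1 and H2-Oa had this shorter form 34 or 35 bases ahead of a Y box on the strand of the gene. Such a pair at 30 to 40 bases, a range also chosen after reading them, occurred in 41 of all 32851 windows on either strand, or 0.125%, these 4 included. The 120 bases before the start are printed 5′ to 3′ on the strand of each gene, with the shorter X box and then the Y box in capitals.
H2-Aa, chr17:34287824-34287943, minus strand: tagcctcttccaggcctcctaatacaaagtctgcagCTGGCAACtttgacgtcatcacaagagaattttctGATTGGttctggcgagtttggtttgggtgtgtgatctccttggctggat
H2-Eb1, chr17:34305747-34305866, plus strand: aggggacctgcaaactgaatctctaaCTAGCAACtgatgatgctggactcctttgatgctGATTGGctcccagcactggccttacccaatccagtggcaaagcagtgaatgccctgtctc
H2-DMb1, chr17:34153071-34153190, plus strand: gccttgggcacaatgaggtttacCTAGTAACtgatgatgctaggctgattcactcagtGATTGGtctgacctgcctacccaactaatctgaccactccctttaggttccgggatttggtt
H2-Oa, chr17:34092259-34092378, plus strand: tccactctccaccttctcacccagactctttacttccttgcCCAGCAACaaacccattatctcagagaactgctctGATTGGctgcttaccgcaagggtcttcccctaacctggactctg

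In these 4 sequences the X box began 84 (H2-Aa), 94 (H2-Eb1), 97 (H2-DMb1) and 79 (H2-Oa) bases before the start. The Y box began 49, 60, 62 and 44 bases before it, in the same order of genes. Of the 2 windows listed for H2-DMa, the first held X boxes and no Y box and the second a Y box without this spacing. These matches describe letters in a window and not occupancy by a factor.

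Between genotypes, 0 of the 14 member probes kept passed the test at an adjusted p under 0.05, against 2.97% of all probes (1007 of 33947, 592 higher and 415 lower in Foxf1+/- lungs, with 1.22% of probes lower). By gene, 0 of 8 members passed, against 3.61% of 15653 genes (1.82% higher and 1.79% lower). All 14 fitted fold changes lay below 0, as did 49.4% of those of all probes, and they did so within experiment A and within experiment B as well. At an unadjusted p under 0.05, 8 of the 14 were lower in Foxf1+/- lungs, against 7.45% of all probes (16.5% in either direction), and 4 of 8 members by their brightest probe, against 9.73% of genes. This count depended on single lungs. It was 0 of 14 without Foxf1+/- replicate 5 (6.49% of all probes), 5 without Foxf1+/- replicate 6 (5.71%) and 4 without wildtype replicate 1 (6.42%), and 8 without wildtype replicate 5 (8.2%). By the exact permutation of genotypes within experiments, 5 of 14 probes and 2 of 8 members had an unadjusted p under 0.05. This test was run on the member probes alone. No share over all probes stands beside its counts, and the shares above, from limma, cannot serve as one. The median fold change of the 8 members was -0.29, and -0.21 without wildtype replicate 5, while that of all genes was -0.01. Probes of 1 gene measure the same RNA, and the members move together between lungs, so that these counts are not independent. In whole lung, fewer cells of a type and less RNA per cell cannot be told apart.

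Of the peptide-binding chains, H2-Ab1, the beta chain of the I-A molecule, had the largest fitted difference of the members. Its brightest probe measured 7.71, 8.35 and 8.48 in Foxf1+/- lungs (lowest, median and highest) and 8.48, 8.96 and 10.57 in wildtype lungs. All 6 Foxf1+/- lungs lay below all 6 wildtype lungs, although the edges of the groups agreed to 2 decimals, and 0.683% of all probes were lower without overlap in this way. The means were 8.18 ± 0.35 in Foxf1+/- and 9.20 ± 0.75 in wildtype lungs (SD, n = 6 each). The fold change was -0.96 ± 0.32 (SE), a 1.94-fold lower signal, with a 95% interval of -1.66 to -0.26 and an adjusted p of 0.145. An exact permutation of genotypes within experiments gave p = 0.0178 for this probe, two-sided and not adjusted, where the smallest p it allows is 0.00444.

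The other probes of H2-Ab1 had the same sign. The second gave 7.71, 8.10 and 8.45 in Foxf1+/- lungs and 8.30, 8.67 and 10.46 in wildtype lungs, with a fold change of -0.78 ± 0.32 (adjusted p = 0.235). On the third, values were 6.96, 7.22 and 7.69 in Foxf1+/- lungs and 7.59, 8.002 and 9.75 in wildtype lungs, and the fold change was -0.79 ± 0.28 (adjusted p = 0.170). Both sets of values overlapped between genotypes by Foxf1+/- replicate 6, the highest Foxf1+/- lung on each of the 3 probes.

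Wildtype replicate 5 lay 1.61 above the mean of the other wildtype lungs of its experiment on the brightest H2-Ab1 probe, 3.06-fold. Without it, the fold change of this probe was -0.76 with an adjusted p of 0.0691. The third probe then passed, with -0.58 ± 0.12 and an adjusted p of 0.0207, and it was the 1 of 14 member probes that did, against 3.13% of all probes (1064). A fit with the T cell level as a covariate, which is high in this lung alone and so repeats its removal, called the same probe at -0.55 ± 0.11 with an adjusted p of 0.0271 (1 of 14 member probes, 3.07% of all probes), and put H2-Oa at -0.01. On the brightest probe the SD was 0.35 in the Foxf1+/- lungs (n = 6), against 0.37 in the wildtype lungs without this one (n = 5).

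H2-Eb1 encodes the beta chain of the I-E molecule. It measured 7.16, 7.56 and 7.91 in Foxf1+/- lungs and 7.77, 8.13 and 9.60 in wildtype lungs. The 4 Foxf1+/- lungs of experiment A, at 7.63 or less, lay below both wildtype lungs there, while in experiment B Foxf1+/- replicate 6 (7.91) lay above wildtype replicate 3 (7.80). The fold change was -0.62 ± 0.25 with an interval of -1.17 to -0.08 and an adjusted p of 0.231, and the exact permutation p was 0.0489. Without wildtype replicate 5 it was -0.45 (adjusted p = 0.109).

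H2-Aa, the alpha chain that pairs with H2-Ab1, gave a dim signal in every lung. Its values were 6.09, 6.22 and 6.40 in Foxf1+/- lungs and 6.15, 6.51 and 7.26 in wildtype lungs. Genotypes did not overlap in experiment A (6.17 to 6.40 in Foxf1+/-, 6.45 and 6.57 in wildtype), and in experiment B wildtype replicate 3 (6.15) lay between the 2 Foxf1+/- lungs (6.09 and 6.17). The fold change was -0.36 ± 0.17 with an adjusted p of 0.297 and an exact permutation p of 0.0667, and without wildtype replicate 5 it was -0.26 (adjusted p = 0.226). Values this close to the floor, which was set at 6.38 for a probe's mean, understate a fold change because of the offset of the background correction.

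**Figure D1:**
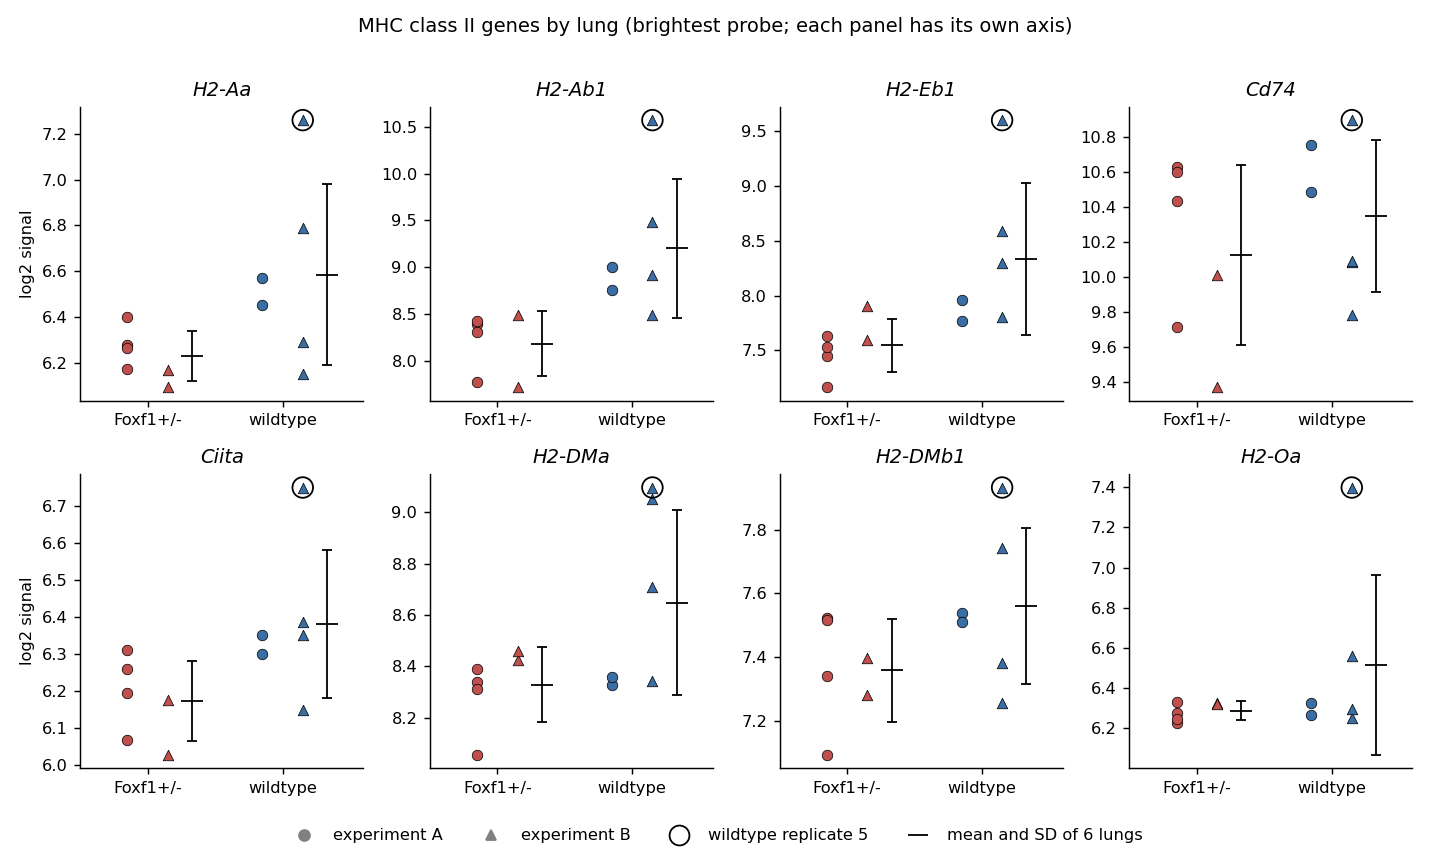
Log2 signal of the brightest probe of each member in each lung, Foxf1+/- on the left and wildtype on the right, circles for experiment A and triangles for experiment B, with the mean and SD of 6 lungs beside each group. The ringed point, wildtype replicate 5, is the highest lung in all 8 panels, and in the H2-Ab1 panel the 6 Foxf1+/- lungs lie at or below 8.48.

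Cd74, the invariant chain, was measured by 3 probes. The brightest gave 9.37, 10.22 and 10.63 in Foxf1+/- lungs and 9.78, 10.29 and 10.90 in wildtype lungs, so that the genotypes overlapped over most of their range. Foxf1+/- replicates 2 (9.71) and 5 (9.37) were the 2 lowest lungs. The fold change was -0.40 ± 0.22, with an interval of -0.87 to 0.08, an adjusted p of 0.408 and an exact permutation p of 0.156. Without wildtype replicate 5 it was -0.28 (adjusted p = 0.467). The second probe gave -0.53 ± 0.22 (adjusted p = 0.243) and the third -0.36 ± 0.14 (adjusted p = 0.203). On the third probe the 4 Foxf1+/- lungs of experiment A (6.70 to 7.34) stayed below both wildtype lungs (7.51 and 7.52).

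H2-DMa and H2-DMb1 form the H2-DM dimer that loads peptides. H2-DMa measured 8.06, 8.36 and 8.46 in Foxf1+/- lungs and 8.33, 8.53 and 9.10 in wildtype lungs on its brighter probe. In experiment A, Foxf1+/- lungs (8.06 to 8.39) enclosed both wildtype values (8.33 and 8.36). In experiment B the Foxf1+/- lungs had 8.42 and 8.46, and 3 of the 4 wildtype lungs were above them at 8.71, 9.05 and 9.10. The fold change was -0.22 ± 0.13 (interval -0.49 to 0.06, adjusted p = 0.454, exact permutation p = 0.222) and -0.16 without wildtype replicate 5 (adjusted p = 0.545), and the other probe gave -0.20 ± 0.15 (adjusted p = 0.571). H2-DMb1 measured 7.09, 7.37 and 7.52 in Foxf1+/- lungs and 7.26, 7.52 and 7.93 in wildtype lungs, which overlapped in both experiments. Its fold change was -0.20 ± 0.12 (interval -0.46 to 0.06, adjusted p = 0.468, exact permutation p = 0.218), and -0.14 without wildtype replicate 5 (adjusted p = 0.556).

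H2-Oa, the alpha chain of the H2-O inhibitor, barely varied outside wildtype replicate 5. Its brighter probe lay between 6.23 and 6.33 in the 6 Foxf1+/- lungs, against 6.25 to 6.56 in 5 wildtype lungs and 7.40 in wildtype replicate 5. The fold change was -0.16 ± 0.17 (adjusted p = 0.716) over all lungs and -0.03 without that lung (adjusted p = 0.852). The second probe gave -0.24 ± 0.19 (adjusted p = 0.600) over all lungs and -0.10 without it (adjusted p = 0.480). This is the member whose fitted difference rested most on that lung.

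Ciita, the coactivator on which class II transcription depends, lay near the floor on both probes. The brighter one gave 6.03, 6.19 and 6.31 in Foxf1+/- lungs and 6.15, 6.35 and 6.75 in wildtype lungs, with a fold change of -0.21 ± 0.10 (interval -0.42 to -0.0032, adjusted p = 0.294, exact permutation p = 0.0578), and -0.16 without wildtype replicate 5 (adjusted p = 0.265). The dimmer one did not pass the filter on low values. It had 5.82 to 5.88 in Foxf1+/- lungs and 5.91 to 6.08 in wildtype lungs, which did not overlap, and its exact permutation p was 0.00444, the smallest this design can give and not adjusted. At this signal a fold change cannot be read as the change of the RNA.

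**Figure D2:**
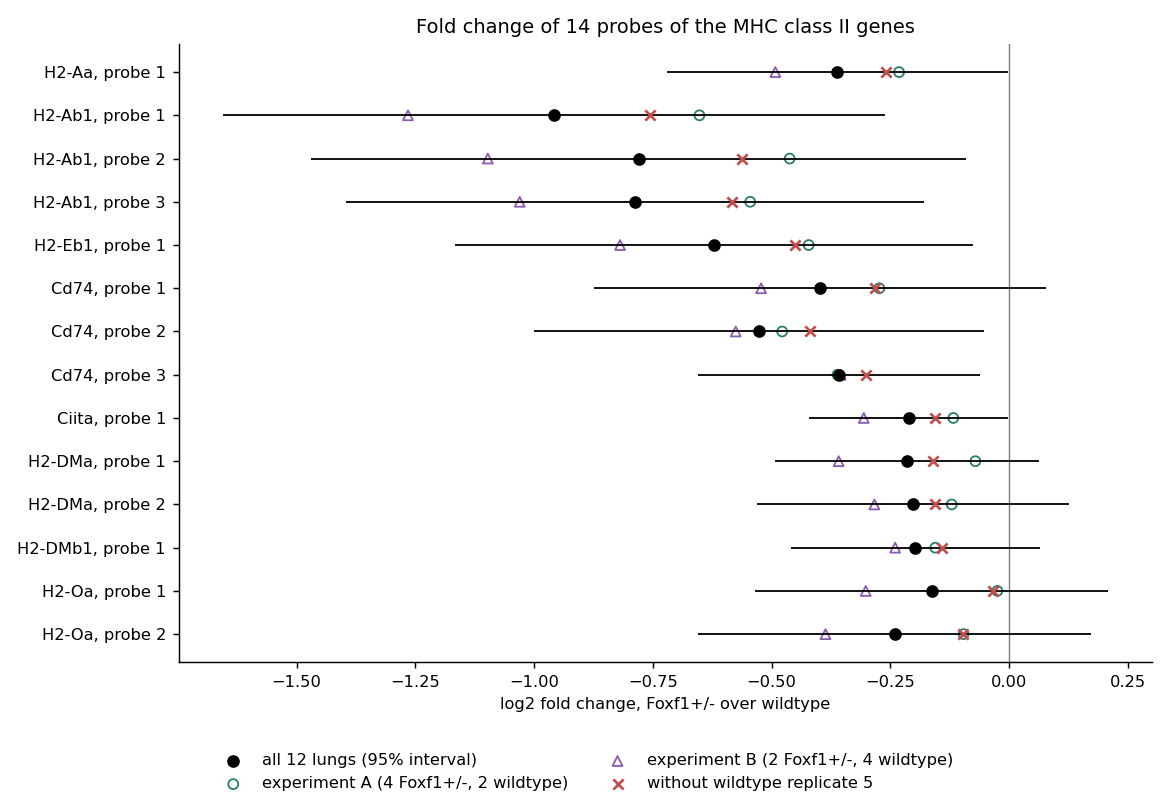
Log2 fold change of Foxf1+/- over wildtype for the 14 member probes kept, with filled points and 95% intervals for all 12 lungs, open symbols for experiments A and B alone and crosses for the fit without wildtype replicate 5. All points lie left of 0, the H2-Ab1 probes lie farthest at -0.96, -0.78 and -0.79, and the crosses of H2-Oa are at -0.03 and -0.10.

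The fitted difference was more negative in experiment B than in experiment A for 13 of the 14 probes, and the median over the members was -0.19 in A and -0.43 in B. The share of all probes more negative in B was not counted, and B held 2 Foxf1+/- lungs. For H2-Ab1 the fitted difference was -0.65 in A and -1.27 in B on the brightest probe. The interaction of genotype and experiment passed for 0 probes of the members and 0 of all probes, with a lowest member adjusted p of 0.999. Experiment B holds wildtype replicate 5, and without it 10 of the 14 probes were more negative in B, the median was -0.20 in A and -0.27 in B, and H2-Ab1 had -0.66 in A and -0.87 in B. Genotypes did not overlap, with Foxf1+/- lower, in 7 of 14 probes in A (8.51% of all probes) and 2 of 14 in B (9.88%). The 2 of B, both probes of H2-Ab1, were also among the 7 of A, and 2.25% of all probes had this in both experiments. All 15 member probes had their lowest value in a Foxf1+/- lung, in replicate 2 for 7 of them and in replicate 5 for 5. The share of all probes lowest in these lungs was not counted. Since the 15 probes are of 8 genes that move together, this count is not read as a trait of the members.

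The members rose and fell together between lungs. Over the 12 lungs the 28 pairs of members had a median Pearson r of 0.829 (0.246 to 0.949) and a median Spearman rho of 0.549, and 25 pairs by r and 11 by rho passed a permutation test after adjustment over the 28 pairs. With the experiment means taken out, the median r was 0.872 (0.688 to 0.982) and the median rho 0.839, and 28 pairs by r and 25 by rho passed. With the genotype means taken out as well, the median r was 0.853 (0.66 to 0.977) and the median rho 0.755, which was not tested. The tests over lungs of both genotypes permuted lungs without regard to genotype. A genotype difference shared by the members therefore counts as co-variation in them. Pairs of other genes were not computed as a baseline. Within experiment A (6 lungs) the median r was 0.778 and 4 pairs passed by r and 0 by rho, in an exact permutation test. Within experiment B (6 lungs) it was 0.906, with 25 pairs by r and 10 by rho. When the 2 lungs farthest from the median of the first gene were left out of each pair, the median r was 0.766 (0.471 to 0.968) with experiment means taken out, and 0.505 without that step.

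With the experiment means taken out, the tightest pair was H2-Ab1 and H2-Eb1, the 2 beta chains, at r = 0.982 and rho = 0.972 (permutation p = 1e-05 each, the smallest that the permutations can give, adjusted 9.33e-05 and 0.00028), and at r = 0.968 without the 2 farthest lungs. Without wildtype replicate 5 this pair kept r = 0.970 and rho = 0.945. Cd74 and H2-Oa were the loosest pair on the same scale, at r = 0.688 and 0.198 without wildtype replicate 5. Before the experiment means were taken out the loosest pair was Cd74 and H2-DMa, at r = 0.246. Leaving out that lung lowered the median over the pairs to 0.758, and 20 pairs by r and 20 by rho passed a permutation test.

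Among the 6 Foxf1+/- lungs alone the pairs were looser, with a median r of 0.528 (-0.33 to 0.969), and 0 pairs passed an exact permutation test after adjustment. H2-Ab1 with Cd74 had r = 0.969 and rho = 0.943 there (exact permutation p = 0.00278 and 0.0167, adjusted 0.0778 and 0.117). Ciita with H2-DMb1 had r = 0.943 and rho = 0.943 (exact permutation p = 0.00556 and 0.0167, adjusted 0.0778 and 0.117). Ciita with H2-Ab1 had r = 0.166 and rho = 0.029 (exact permutation p = 0.735 and 1, adjusted 0.858 and 1). Whether the correlations differ between Foxf1+/- and wildtype lungs was not tested.

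**Figure D3:**
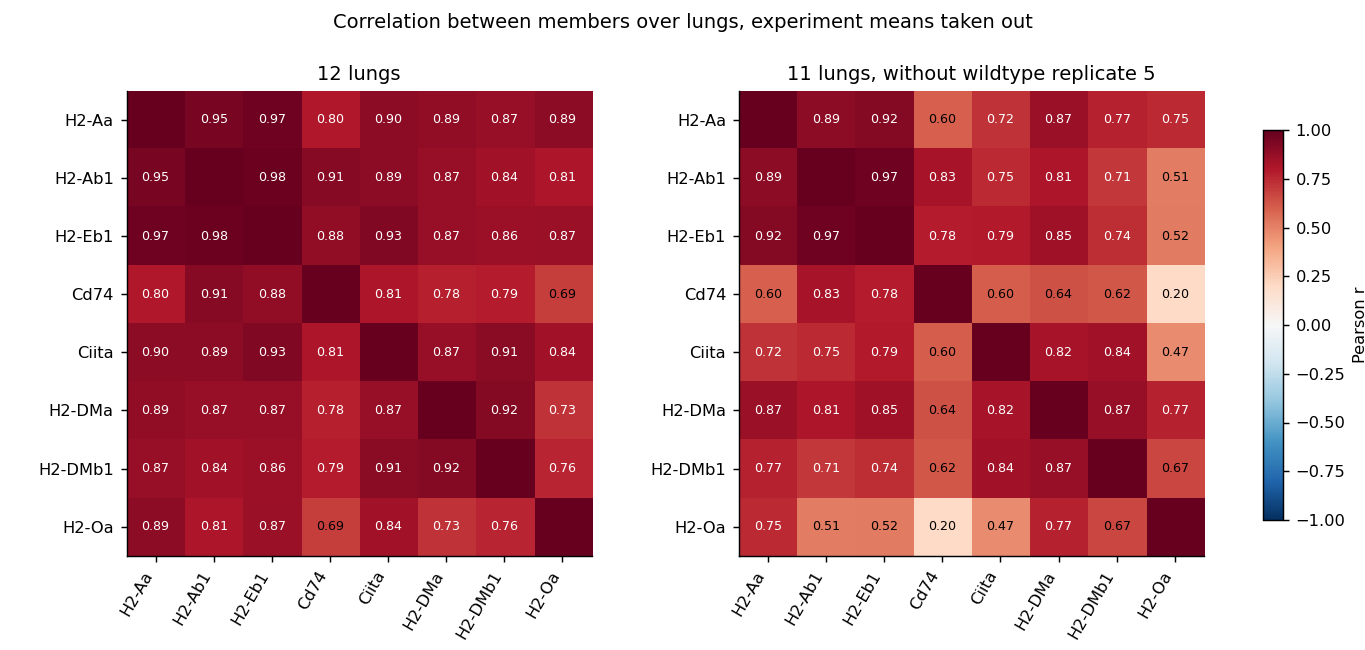
Pearson r between the brightest probes of the members over lungs, after the mean of each experiment was taken out, for all 12 lungs on the left and without wildtype replicate 5 on the right. On the left all pairs lie at 0.688 or above, on the right H2-Oa falls to 0.198 with Cd74 while H2-Ab1 and H2-Eb1 stay at 0.970.

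The 10 genes most like the members were ranked by likeness to their mean. By r with the mean of the 7 members above the floor, experiment means taken out and over 12 lungs, the leading genes were Ltb, a lymphotoxin chain of lymphocytes (0.955), Cd52, a surface glycoprotein of leukocytes (0.947), Vav1, a signalling factor of blood cells (0.945), Arhgap4 (0.925), Cd163l1 (0.925), Cbr3 (0.922), Psd4 (0.920), Cd72, a receptor of B cells (0.920), Lgals2 (0.916) and Dennd1c (0.915). An r of at least 0.8 was reached by 1.41% of 15645 genes. Of these 10 genes, 0 passed between genotypes, and Cd52 at -0.67 ± 0.21 had the lowest adjusted p (0.120). The ranking depended on wildtype replicate 5. Without it 0.959% of genes reached an r of 0.8, and the 10 leading genes were Slc27a6 (0.932), P2rx7 (0.930), Il10ra (0.928), Tnk1 (0.920), Mif4gd (0.918), Acoxl (0.914), Pcdh1 (0.912), H2-Ke6 (0.905), Sp5 (0.904) and Clec3b (0.902). These shared 0 with the first 10, which had an r between 0.766 and 0.902 over the 11 lungs.

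The calls among other genes of the pathway are to be read against the 3.61% of all genes called, and without wildtype replicate 5 against 3.85%. Of the other class II chains, 0 of 3 tested passed, and H2-Ea was under the filter on low values. H2-DMb2, a second beta chain of H2-DM, had -0.29 ± 0.12 (adjusted p = 0.229), and H2-Ob, the partner of H2-Oa, had 0.11 ± 0.06 near the floor (adjusted p = 0.422). Array probes cannot be assumed to separate H2-DMb1 from H2-DMb2, which are close copies. Among 13 factors of class II transcription 1 was lower and 0 higher. It was Irf1, an interferon-induced activator, at -0.47 ± 0.10 (adjusted p = 0.0299), and -0.46 ± 0.11 without wildtype replicate 5 (adjusted p = 0.0421). The subunits of the X box and Y box complexes did not pass, with Rfxank at 0.17 ± 0.12, Rfxap at 0.09 ± 0.07, Nfya at 0.04 ± 0.09 and Creb1 at -0.08 ± 0.06.

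Processing and trafficking genes, such as the endosomal proteases, counted 0 of 15 passed, with a median of 0.04. Lgmn, a lysosomal protease, had -0.07 ± 0.10, and Ifi30, a thiol reductase, had 0.18 ± 0.11. Costimulatory genes counted 0 of 7, with Cd40 at -0.44 ± 0.20 (adjusted p = 0.294) and Icosl at -0.16 ± 0.06 (adjusted p = 0.158). The class I presentation genes, which act on cytosolic peptides, counted 0 of 25 and a median of -0.08. In that list Tapbpl had -0.26 ± 0.08 (adjusted p = 0.139) and Psmb9, an immunoproteasome subunit, -0.40 ± 0.14 (adjusted p = 0.171), while H2-D1 had -0.11 ± 0.08 and B2m 0.02 ± 0.09. Of 16 targets of interferon gamma 1 was lower, which was Irf1 again.

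Neighbours of the class II genes in the same chromosomal region counted 1 of 21 higher and 0 lower, or 4.76%, near the 3.61% of all genes. Wdr46 rose by 0.59 ± 0.10 (adjusted p = 0.00928), and by 0.60 ± 0.11 without wildtype replicate 5 (adjusted p = 0.0119), and H2-Ke6, which encodes a steroid dehydrogenase despite its name, had -0.27 ± 0.08 (adjusted p = 0.106).

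Markers of the cells that carry class II molecules gave these values beside the members. The B cell list counted 0 of 14 passed. In it 5 were lower at an unadjusted p under 0.05, against 9.73% of all genes, and 12 lay below 0, as did 8220 of 15653 genes. The same counts were 1 and 7 of 17 dendritic cell genes and 0 and 11 of 21 macrophage genes. They were 2 and 13 of 14 alveolar type 2 genes and 3 and 7 of 8 genes of all leukocytes. For NK cell and innate lymphoid genes they were 3 and 9 of 11, and for T cell and thymocyte genes 1 and 14 of 15. The B cell list had a median of -0.16 (-0.09 without wildtype replicate 5). Its summed level (the mean of its genes) was 6.46 to 6.58 in Foxf1+/- lungs. The other wildtype lungs had 6.55 to 6.96 and wildtype replicate 5 had 7.04. Cd79b, a chain of the B cell receptor, measured 7.78 to 8.59 in Foxf1+/- lungs, 8.12 to 9.07 in the other wildtype lungs and 9.02 in wildtype replicate 5, with -0.35 ± 0.12 (adjusted p = 0.164). Ms4a1 stayed at or below 6.21 in every lung, Pax5 did not pass the filter on low values, and Cd79a was not analysed here. The dendritic cell list counted 0 of 17, with 11 genes near the floor and levels of 6.69 to 6.87 in Foxf1+/- against 6.64 to 6.89 in wildtype lungs. Its defining genes Flt3 and Itgax had mean levels of 6.12 and 6.06, below the floor limit.

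The macrophage list counted 0 of 21, with levels of 8.66 to 8.78 in Foxf1+/- and 8.66 to 8.80 in wildtype lungs. Genes of all leukocytes counted 0 of 8, a median of -0.19 and levels of 9.14 to 9.37 in Foxf1+/- against 9.25 to 9.56 in the other wildtype lungs and 9.72 in wildtype replicate 5. NK cell and innate lymphoid genes counted 1 of 11 lower, Gata3, a factor of innate and T lymphocytes, at -0.35 ± 0.07 (adjusted p = 0.0236), and -0.35 ± 0.08 without wildtype replicate 5 (adjusted p = 0.0344). Alveolar type 2 genes counted 0 of 14, with a median of -0.20 and levels of 12.20 to 12.62 in Foxf1+/- against 12.46 to 12.71 in wildtype lungs. As a description, the mean of the members was correlated with the list levels over the 12 lungs, with experiment means taken out. Genotype means were left in, so that a difference between genotypes enters these r values. The mean of the members had r = 0.924 with the B cell level and 0.914 with the level of all leukocytes. Without wildtype replicate 5 these were 0.863 and 0.827. Every other cell list had a lower r, over the 12 lungs and without that lung. Near the floor were 5 of 14 B cell genes, 6 of 11 NK cell and innate lymphoid genes and 8 of 15 T cell and thymocyte genes. NK cell and innate lymphoid genes had 0.868 over the 12 lungs and 0.667 without it. In the same order, T cell and thymocyte genes had 0.817 and 0.596, and alveolar type 2 genes 0.621 and 0.68. Dendritic cell genes had 0.301 and -0.0139, and macrophage genes had 0.275 without that lung. Markers of other cells of the lung were called between genotypes. Capillary endothelium counted 6 of 12 lower and 1 higher, with Car4, a carbonic anhydrase of alveolar capillaries, at -2.13 ± 0.21 (adjusted p = 0.00028), and mast cells counted 6 of 8 higher, with Cma1, a mast cell chymase, at 2.61 ± 0.12 (adjusted p = 6.7e-07). Both counts were the same without wildtype replicate 5. The part of these cell types in the class II values was not tested.

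**Figure D4:**
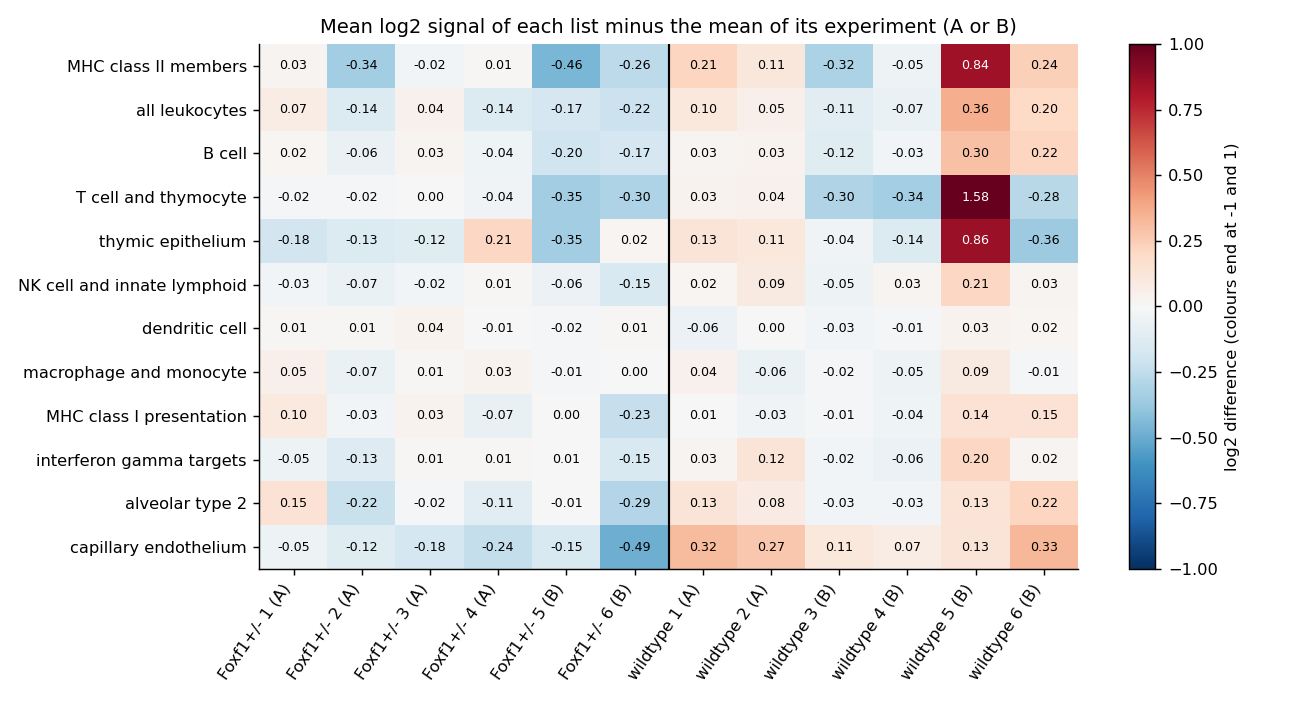
Mean log2 signal of the members and of 11 gene lists in each lung, minus the mean of the experiment (A or B in brackets), with Foxf1+/- lungs left of the black line and wildtype lungs right of it. In wildtype replicate 5 the T cell and thymocyte list stands 1.58, the thymic epithelium list 0.86 and the members 0.84 above the experiment mean. On this scale the members are lowest in Foxf1+/- replicate 5 at -0.46, where wildtype replicate 5 raises the mean of experiment B. Before this subtraction their level was lowest in Foxf1+/- replicate 2 (7.289, against 7.387 in Foxf1+/- replicate 5).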

How the data were processed

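Total RNA of 12 whole lungs was hybridized to 12 arrays. The authors deposited raw probe intensity on a linear scale, without background subtraction or normalization, and processed log2 values, which per the methods were variance stabilized and robust spline normalized (lumi) and corrected with ComBat for 2 array experiments, versions not given in the sources used here. Raw intensities were the start. With limma 3.58.1 in R 4.3.3 they were background corrected by normexp with an offset of 50, log2 transformed and quantile normalized. 18 probes with damaged cells were left out, and 33947 of 45263 probes with a mean above the 25th percentile were kept. A probe was near the floor at a mean under 6.38, 0.5 above the 5th percentile of the means.

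Since no label gives the experiment, arrays were clustered in 2 (k-means, mean silhouette 0.75) by the 5th, the 50th and the 95th percentile of raw signal. The limma model held genotype and experiment for each probe, with two-sided tests and Benjamini-Hochberg adjustment over all probes kept. A gene's brightest probe stood for it. Single probes were also tested by an exact permutation of genotypes within experiments (225 relabellings), and correlations by 100000 permutations, or by all orders with 6 lungs. P-values measure the spread between these lungs, which the labels call biological replicates. Genes are named from the array's annotation (34874 probes with 1 symbol, 18 with several, 10371 with none). Promoters are from RefSeq (GRCm38.p6).

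In simulated data of 33947 probes for the comparison of Foxf1+/- with wildtype, the fit recovered 71.6% of changes of 0.5 and 98.5% of changes of 1 and of 2 on the log2 scale. The simulated noise was independent and normal at each probe's own spread, with no lung set apart as wildtype replicate 5 is. Changes were given to probes drawn at random, so that the rates do not carry over to the members. The brightest H2-Ab1 probe had an SE of 0.32 and did not pass at -0.96. The members and gene lists were chosen with earlier results of these data known. Named were all members, genes called in the lists, up to 4 further genes of a list by adjusted p, defining markers, and the 10 genes most like the members. Rfxank, Rfxap, Nfya, Creb1, Lgmn, Ifi30, H2-D1, B2m and the 10 genes most like the members without wildtype replicate 5 were added to these after their values were seen. Alternatives were other background correction, scaling, filters, blocks, weights, covariates, the authors' processed values, the methods' t-test and leaving out each lung.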

Additional observations from a re-analysis of the deposited data

Results flagged for a closer look

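In 5 groups of 6 lungs, 1 lung lay far from the others by Dixon's criterion for 6 values, which chance meets in about 1 of 20 groups, and the 15 probes of 8 genes in 2 genotypes are not independent. The second probe of H2-Ab1 measured 10.46 in wildtype replicate 5, against 8.30 to 9.11 in the other wildtype lungs. The third probe of H2-Ab1 measured 9.75 in that lung, against 7.59 to 8.34. H2-Oa measured 7.40 there on its brighter probe, against 6.25 to 6.56, and 7.58 on the other, against 6.24 to 6.53. In the Foxf1+/- lungs, H2-DMa measured 8.06 in replicate 2 on its brighter probe, against 8.31 to 8.46 in the other 5.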

How the results depend on the processing

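The fitted difference of the members' brightest probes lay below 0 in all 207 values of the 26 alternatives, and 0 of these values passed. Over the lungs left out in turn, 0 to 1 member probes passed, the 1 being the third H2-Ab1 probe without wildtype replicate 5, and 1 passed with the T cell level as a covariate. At an unadjusted p under 0.05, member probes numbered 0 to 10 over the lungs left out, against 8 with all lungs. Probes called among all numbered 1007, 501 with no experiment block, 240 by the methods' t-test, 10 in experiment A alone and 56 in experiment B alone. Leaving out 1 lung gave 405 to 1108, with 436, 405 and 432 when Foxf1+/- replicate 5, Foxf1+/- replicate 6 or wildtype replicate 1 was left out. Median scaling gave 497 higher and 181 lower in place of 592 and 415. The replicate numbers were not used as pairs, since no label says that same-numbered lungs are littermates. Their deviations had r of -0.486 to 0.483 with group means taken out, 4 of 6 above 0, and -0.395 to -0.048 with the experiment fitted too. Numbers 1, 2, 5 and 6, above 0, had both lungs in the same experiment, and numbers 3 and 4 did not. With the experiment fitted, deviations of both genotypes must cancel within it, which lowers r. Neither check can therefore decide the pairing. With the replicate number as a block, 724 probes were called and 0 of the members. The median correlation between members was 0.829 over all lungs and 0.528 among Foxf1+/- lungs, an alternative chosen after seeing the data, as was the one without wildtype replicate 5 (0.758). Ciita, H2-Aa and H2-Oa were dim, where the offset understates a change, and 6 lungs a genotype limit the precision of every value.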
